A study of Mus musculus with 24 samples.

Results

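DNA methylation and histone methylation are put on, taken off and read by separate enzyme families, and 48 genes of these families were followed in basal forebrain cholinergic neurons of the mouse. The 48 symbols were listed by class and matched to the Ensembl identifiers of the deposited table, where each matched 1 gene of 55414. All 48 passed the filter on low counts and stand among 19967 tested genes. Libraries came from neurons of the medial septum and vertical limb of the diagonal band, stained for choline acetyltransferase and cut out by laser, with about 500 neurons in each and 1 library per sample.

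All mice were males of about 6 months. Ts65Dn mice carry extra copies of parts of chromosomes 16 and 17 and model Down syndrome, and 2N mice are their disomic counterparts. Their dams, themselves Ts65Dn, ate chow with 5.0 g/kg choline chloride (supplemented) or 1.1 g/kg (control), and every pup ate the control chow after weaning. The labels give 8 supplemented Ts65Dn, 4 supplemented 2N, 6 control-diet Ts65Dn and 6 control-diet 2N libraries, whereas the design text gives 6 per group. No label gives the litter, so p-values measure the spread between these samples. In such captured pools, fewer cells of a type and less RNA per cell cannot be told apart.

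DNA methyltransferases place a methyl group on cytosine, mostly at CpG, and TET dioxygenases start its removal. Methyl-CpG readers bind the mark, and histone lysine and arginine methyltransferases and demethylases set marks that go with active or silent genes. The methyl donor for all the transferases is S-adenosylmethionine, which the cell can renew from choline by way of betaine.

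The captured material was mixed in marker content. Total counts ran from 4688277 to 13443457 per library, 13102 to 22593 genes were detected, and the mitochondrial ribosomal RNAs took 13.5% to 43.3% of counts. By group that share was 17.8% to 43.3% in supplemented Ts65Dn and 18.1% to 22.6% in supplemented 2N libraries. It was 13.5% to 29.25% in control-diet Ts65Dn and 18.9% to 25.8% in control-diet 2N libraries. All 11 cholinergic markers were detected in each group, but their summed level ran from 333 to 505 CPM (counts scaled by library size with TMM factors) in supplemented Ts65Dn, 331 to 600 in supplemented 2N, 57.2 to 301 in control-diet Ts65Dn and 268 to 361 in control-diet 2N libraries. Chat, the gene of the stained enzyme, was under 1 CPM in 6 libraries, among them control-diet Ts65Dn replicates 3, 5 and 6. Control-diet Ts65Dn replicate 3 had Chat at 0 and Slc17a7, a glutamatergic marker, at 798 CPM. Gad1, a GABAergic marker, was lowest there at 70.4 CPM and ran from 162 to 634 CPM elsewhere. Mbp, an oligodendrocyte gene, ran from 387 to 2147 CPM, where Chat reached at most 54.1 CPM. Over all libraries, 11 GABAergic markers summed to 348 to 1399 CPM. The sums were 762 to 4245 CPM for 15 oligodendrocyte markers and 2545 to 4156 CPM for 15 astrocyte markers. Member levels are therefore those of mixed material. Xist had 50 or more counts in 4 libraries labelled male. In the deposited table's column order, supplemented Ts65Dn replicates 2 and 5 stand among supplemented 2N columns, so the results were also computed without them.

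The promoters of the members with the smallest p among the comparisons below, Tet3, Setd1a and Kmt2d, are shown with their CpG, the substrate of the DNA methylation enzymes themselves. Each runs from 250 bases before to 50 after the start of transcription in the RefSeq promoter table of build GRCm38.p6, 5′ to 3′ on the gene's strand, with each CpG in capitals. Tet3 lies at chr6:83441629-83441928 on the minus strand with 22 CpG, Setd1a at chr7:127777139-127777438 on the plus strand with 35, and Kmt2d at chr15:98871156-98871455 on the minus strand with 27. In GENCODE M21 the Tet3 and Setd1a genes begin upstream of these stretches, so the RefSeq starts shown for both lie inside the annotated gene.
Tet3: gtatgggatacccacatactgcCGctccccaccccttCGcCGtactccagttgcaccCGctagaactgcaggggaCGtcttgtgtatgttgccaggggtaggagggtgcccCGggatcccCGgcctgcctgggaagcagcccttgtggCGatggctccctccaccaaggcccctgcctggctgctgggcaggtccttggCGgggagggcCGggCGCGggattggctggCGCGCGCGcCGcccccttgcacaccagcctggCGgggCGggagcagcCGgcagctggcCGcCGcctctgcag
Setd1a: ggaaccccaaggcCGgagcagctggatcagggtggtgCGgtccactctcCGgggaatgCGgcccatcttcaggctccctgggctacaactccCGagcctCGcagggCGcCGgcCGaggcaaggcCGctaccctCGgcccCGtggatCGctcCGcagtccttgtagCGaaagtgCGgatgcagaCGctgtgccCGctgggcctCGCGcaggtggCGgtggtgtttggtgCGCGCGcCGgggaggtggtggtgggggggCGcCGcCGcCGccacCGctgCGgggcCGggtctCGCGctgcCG
Kmt2d: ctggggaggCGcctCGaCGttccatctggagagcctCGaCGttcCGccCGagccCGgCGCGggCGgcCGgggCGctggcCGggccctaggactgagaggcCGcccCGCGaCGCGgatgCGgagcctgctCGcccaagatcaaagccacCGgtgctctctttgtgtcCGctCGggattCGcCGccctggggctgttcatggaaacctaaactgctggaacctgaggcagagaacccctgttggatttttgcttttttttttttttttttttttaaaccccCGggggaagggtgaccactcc

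Promoters were listed for 34 members. Their median was 27.5 CpG per 300 bases, against 20 over 12061 tested genes with a listed promoter, and 23 of the 34 held 20 or more, as did 50.1% of those genes. Only Suz12, a core subunit of Polycomb repressive complex 2 (PRC2), held the E2F-type motif TTTCCCGC on either strand (1 of 34, 2.94%, against 1.89%), and only Mbd3 held TATAAA (2.94% against 7.5%). Where a gene has several starts the first listed was counted. Dnmt1 shows how much that matters, with 2, 12 and 33 CpG at its 3 starts.

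Most members were well expressed. Their median level was 24.5 TPM (a share of transcripts, which allows for gene length), against 5.93 TPM over the tested genes, and 43 members lay above that. Each library detected between 41 and 47 members, and 39 were detected in every library.

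Levels by class are means of 24 libraries in TPM. Among DNA methyltransferases, Dnmt3a, which sets new methylation, had 144 ± 57.2 TPM (SD, n = 24) and Dnmt1, which copies methylation after replication, 50.2 ± 36.0 TPM. The third, Dnmt3b, a de novo enzyme of the early embryo, had 0.928 TPM and was at 0 in 15 libraries. Of the TET genes, Tet2 had 31.9 TPM, Tet3 had 27.9 TPM and Tet1 had 7.89 TPM. Methyl-CpG readers followed the order Mbd3 (32.6 TPM), Mbd2 (31.2), Mbd1 (17.0), Uhrf2 (14.9), Mbd4 (2.77) and Uhrf1 (0.793 TPM). Uhrf1, which recruits Dnmt1 to replicated DNA, was at 0 in 15 libraries. Mbd3 binds methylated CpG weakly and belongs to the NuRD complex, and Mbd4 is also a DNA glycosylase.

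H3K4 writers mark promoters and enhancers, and they were the class with the highest single level. Kmt2d, which acts at enhancers, had the highest mean of all members, 174 ± 111 TPM. Next in this class came Kmt2a (114 ± 40.1 TPM), Kmt2e (58.0), Kmt2b (55.5), Kmt2c (36.3), Setd1a (25.5) and Setd1b (20.6 TPM). Kmt2e belongs to this family by sequence, although its own enzyme activity is in doubt. H3K36 writers, whose mark lies over transcribed genes, stood between 26.4 and 51.5 TPM, namely Nsd1 (51.5), Nsd3 (40.0), Ash1l (27.7) and Setd2 (26.4 TPM). Dot1l, the H3K79 writer, had 33.6 TPM.

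Levels of the writers of silencing marks differed widely. Of the H3K9 writers, Ehmt2 (97.4 ± 36.5 TPM) and its partner Ehmt1 (57.9 TPM) lay far above Setdb1 (8.45), Setdb2 (2.38) and Suv39h2 (0.513 TPM, the lowest mean of all members, at 0 in 14 libraries). Within PRC2, which writes H3K27 methylation, the catalytic subunit Ezh1 had 31.4 ± 19.4 TPM and its alternative Ezh2, typical of dividing cells, 11.6 ± 10.8 TPM. The scaffold subunits Eed and Suz12 had 13.1 and 9.42 TPM. SDs near or above the mean for Ezh2, Eed and Suz12 show that single libraries differ widely for these genes.

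Histone demethylases ran from 51.1 TPM for Kdm2a, an H3K36 demethylase, to 6.86 TPM for Kdm7a, which acts on H3K9 and H3K27. Between them lay Kdm2b (49.5 TPM), Kdm5a (28.4), Kdm3a (25.9), Kdm1a (22.4), Kdm4b (21.8), Kdm6b (20.0), Kdm3b (18.6), Kdm4a (16.4), Kdm5b (16.2) and Kdm4c (8.55 TPM). Kdm5 enzymes remove H3K4 methylation, Kdm3 enzymes H3K9 methylation, Kdm4 enzymes H3K9 and H3K36 methylation, and Kdm6b removes H3K27 methylation. Arginine methyltransferases were Prmt5 (23.4 TPM), Carm1 (18.4 TPM) and Prmt1 (13.1 TPM).

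**Figure D1:**
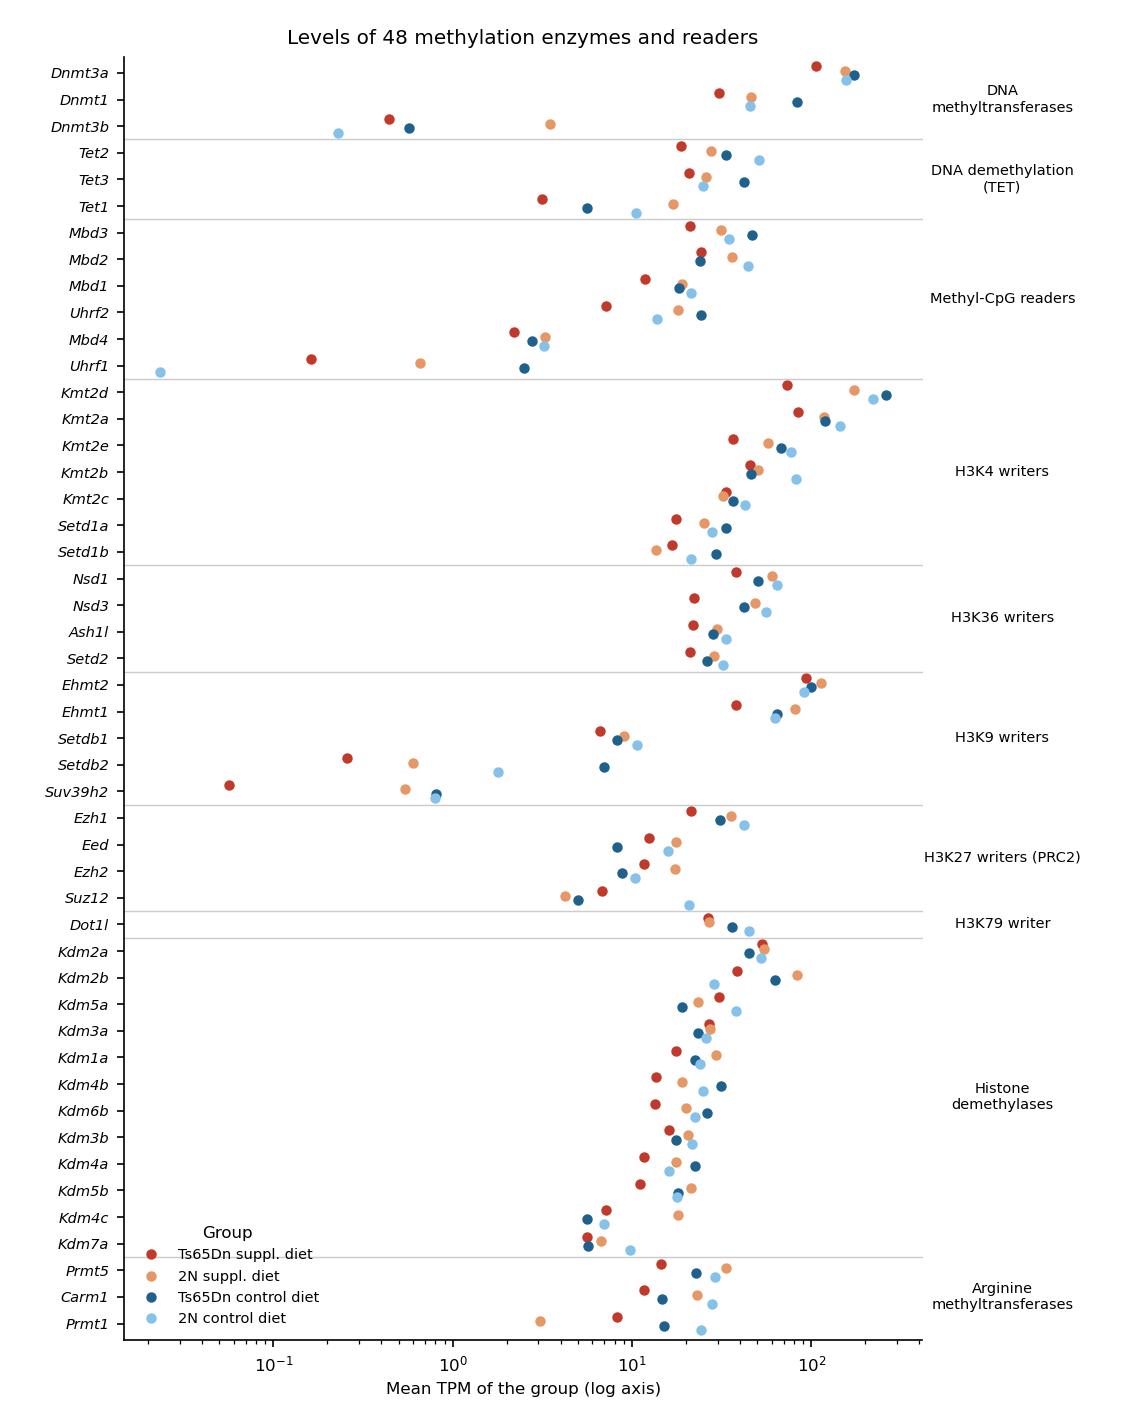
Mean TPM of each of the 48 members in each of the 4 groups, on a log axis, by class. Kmt2d, Dnmt3a and Kmt2a lie at the right, and Suv39h2, Uhrf1 and Dnmt3b at the left. In TPM the supplemented Ts65Dn mean is the lowest of the 4 for Dnmt1 and Tet3, among others, and for the summed level of every class. This is not particular to the members. On log2(TPM + 0.5) the median of all tested genes was -0.47 for supplemented Ts65Dn against supplemented 2N and -0.17 against control-diet Ts65Dn. In CPM its mean was above that of control-diet 2N for Dnmt1 (88.5 against 83.9) and for Tet3 (133 against 95.9).

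No member passed an adjusted p of 0.05 in any of 5 comparisons by edgeR's quasi-likelihood test. The share of all tested genes that passed was 0.336% for trisomy on the control diet, 0.13% for supplementation in Ts65Dn, 0.00501% for supplementation in 2N, 0.18% for trisomy on the supplemented diet and 0.00501% for the interaction of genotype and diet. At an unadjusted p under 0.05 the counts of members were 8, 4, 2, 3 and 3 of 48, in the same order. Of all tested genes, 10.9%, 9.62%, 6.92%, 9.49% and 8.43% did so. DESeq2 called 2 members for trisomy on the control diet, where it called 326 tested genes (1.63%) against 67 by edgeR, and 0 members in the other comparisons, where it called 216 to 409 genes (1.08% to 2.05%). By limma-voom 0 members were called in each comparison, with 1 to 70 tested genes called (0.00501% to 0.351%). Comparisons that share a group share its libraries, so their values stand side by side and are not set against one another.

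**Figure D2:**
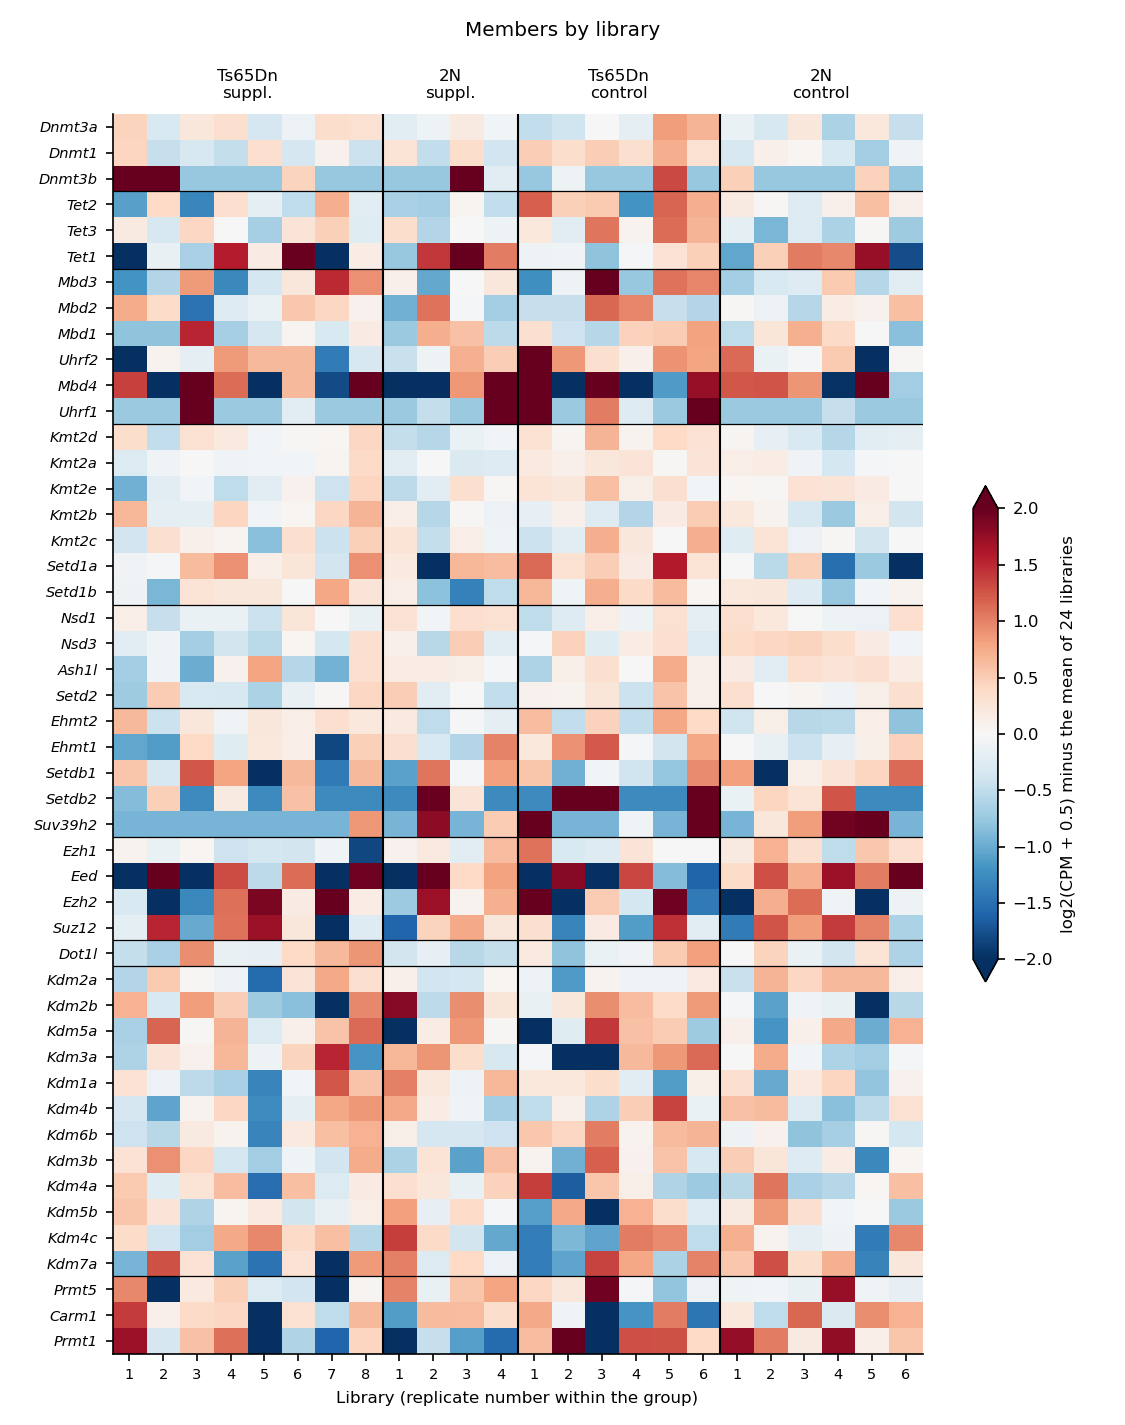
Each of the 48 members (rows, by class) in each of the 24 libraries (columns, by group), as log2(CPM + 0.5) minus the member's mean over the libraries. Kmt2d, Kmt2a and Nsd1 vary little, while Uhrf1, Dnmt3b, Mbd4, Eed and Ezh2 swing between single libraries.

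The first comparison asks what the trisomy goes with under the control diet. In control-diet Ts65Dn against control-diet 2N libraries, 34 of 48 members had a positive log2 fold change and the member median was 0.19, against 49% and -0.02 over all tested genes. The 8 members at an unadjusted p under 0.05 (16.7%) were all higher in Ts65Dn, where 5.36% of tested genes were higher at that threshold. By class, all 7 H3K4 writers were positive with a median of 0.30, all 6 methyl-CpG readers with a median of 0.51 and all 3 DNA methyltransferases with a median of 0.49. That last median is the value of Dnmt3b (0.49 ± 2.07, SE), which was at 0 in 4 of 6 libraries of each group. The readers include Mbd4 (0.05 ± 1.46, SE) and Uhrf1, which is near the floor. H3K36 writers (1 of 4 positive, median -0.11) and PRC2 (1 of 4, median -0.31) stood on the other side, and 8 of 12 demethylases were positive with a median of 0.10. None of these members was called. On log2(TPM + 0.5) the member median was -0.28 with 16 positive, against a median of -0.36 over tested genes on that scale.

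Tet3, which oxidises methylcytosine, had the smallest p. It ran from 110 CPM through a median of 176 to 277 CPM in control-diet Ts65Dn libraries, and from 67.2 through 93.8 to 130 CPM in control-diet 2N libraries. All 6 Ts65Dn libraries lay above the 2N mean, although the groups overlapped. Its log2 fold change was 0.99 ± 0.27 (SE) with an adjusted p of 0.115 over all tested genes.

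Setd1a, an H3K4 writer of the COMPASS family, had a lowest, median and highest value of 106, 125 and 287 CPM in control-diet Ts65Dn libraries, against 17.4, 60.8 and 132 CPM in control-diet 2N libraries. Every Ts65Dn library was above the 2N mean, and the highest 2N library reached into the Ts65Dn range. The log2 fold change came to 1.28 ± 0.41 (SE, adjusted p = 0.196). Kmt2d had 846, 1003 and 1311 CPM in control-diet Ts65Dn and 550, 713 and 848 CPM in control-diet 2N libraries. These ranges met at a single point, 846 CPM in Ts65Dn being just under 848 CPM in 2N. Its difference was 0.53 ± 0.18 (SE) on the log2 scale (adjusted p = 0.197).

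Kdm6b, the H3K27 demethylase, had 95.5, 138 and 186 CPM in control-diet Ts65Dn libraries and 52.0, 78.4 and 96.9 CPM in control-diet 2N libraries. Only the lowest Ts65Dn library fell within the 2N range. Its log2 fold change was 0.85 ± 0.30 (SE, adjusted p = 0.213). Dnmt1 was the member whose groups did not overlap, with 117, 128 and 158 CPM in control-diet Ts65Dn and 58.7, 84.2 and 102 CPM in control-diet 2N libraries. That pattern, every Ts65Dn library higher, was found in 1 of 48 members (2.08%) and in 0.265% of tested genes. Dnmt1 gave 0.64 ± 0.27 (SE, adjusted p = 0.336).

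The rest of the 8 were Ehmt2 (0.59 ± 0.26, adjusted p = 0.354), the H3K36 demethylase Kdm2b (1.07 ± 0.51, adjusted p = 0.415) and Uhrf1 (6.32 ± 2.55, adjusted p = 0.284). Kdm2b had 25.7, 40.3 and 54.8 CPM in control-diet Ts65Dn, against 4.15, 22.4 and 27.9 CPM in control-diet 2N libraries. The Uhrf1 value rests on few reads, since it was at 0 in 2 of 6 control-diet Ts65Dn and 5 of 6 control-diet 2N libraries and its highest values were 10.2 CPM and 0.107 CPM.

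**Figure D3:**
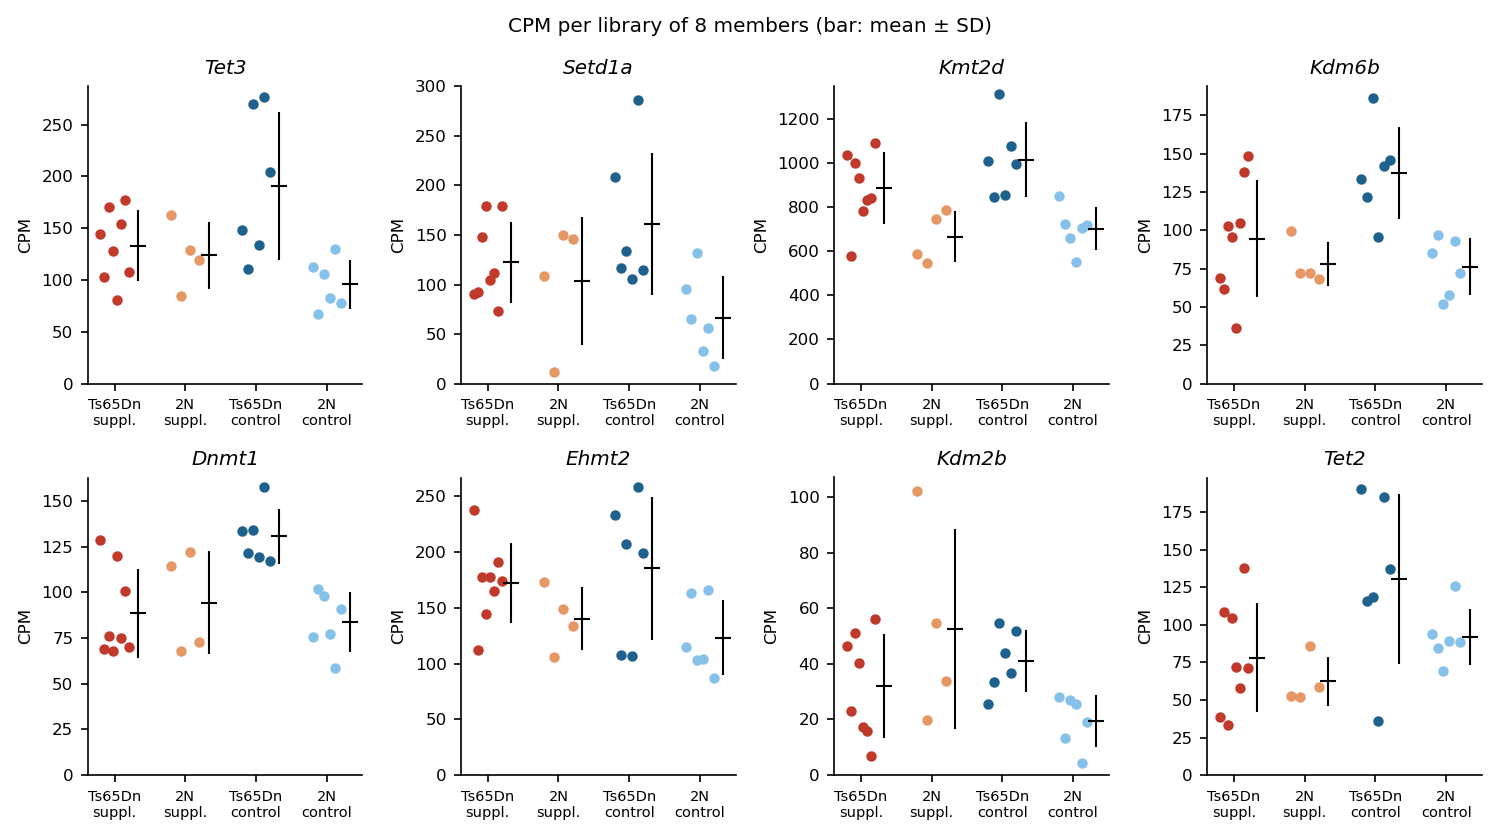
CPM of 8 members in each library (points) with the mean ± SD of each group (bars). Dnmt1 in control-diet Ts65Dn, at 117 to 158 CPM, lies wholly above control-diet 2N, and Setd1a has a single supplemented 2N library at 11.1 CPM.

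Without the 6 libraries with Chat under 1 CPM, which leaves 3 in the control-diet Ts65Dn group, the member median was -0.02, against -0.11 over tested genes, and 2 members had an unadjusted p under 0.05, as did 8.16% of tested genes. Tet3 then had a log2 fold change of 0.53, Kmt2d 0.34, Ehmt2 0.36 and Kdm2b 0.58, while Setd1a (1.05), Kdm6b (0.66) and Dnmt1 (0.47) moved by less than 1.5 times. Glutamatergic markers were 7 genes, all detected in both groups. They summed to 33.6 to 1017 CPM in control-diet Ts65Dn and 18.2 to 168 CPM in control-diet 2N libraries. By log2 fold change only 3 of the 7 were positive (median -0.21), and Slc17a7 alone was at 798 CPM in control-diet Ts65Dn replicate 3. The part of glutamatergic markers in the member values was not tested. Nor was that of other marker lists. Of the markers of neurons in general 2 of 12 were positive (median -0.47), with Nefm called (-1.29, adjusted p = 0.0411), and of astrocyte and oligodendrocyte markers 1 of 15 each (medians -0.43 and -0.47). Cholinergic markers were positive in 2 of 11 (median -0.76) and GABAergic ones in 3 of 11 (median -0.43). Microglia (8 of 12, median 0.35), blood vessel (6 of 11, median 0.17) and oligodendrocyte precursor markers (5 of 8, median 0.06) leaned the other way. By DESeq2, Tet3 (1.06, adjusted p = 0.0119) and Kmt2d (0.60, adjusted p = 0.0259) were among the 1.63% of genes called. Setd1a was called without a low-count filter (adjusted p = 0.0332), as was 0.647% of 39538 genes. Tet3 was called without control-diet Ts65Dn replicate 2 (adjusted p = 0.0466), as was 0.594% of 19712 genes.

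The supplementation comparison in Ts65Dn asks what maternal choline goes with in trisomic neurons. Here 16 of 48 members had a positive log2 fold change and the median was -0.20, against 51.9% and 0.04 over tested genes. The 4 members at an unadjusted p under 0.05 (8.33%) were all lower in supplemented Ts65Dn, as were 4.24% of tested genes. The control-diet Ts65Dn libraries enter both this comparison and the preceding one. By class, no H3K36 writer of 4, 1 of 7 H3K4 writers (median -0.23) and 1 of 6 methyl-CpG readers (median -0.35) were positive. PRC2 had 3 of 4 positive with a median of 0.19. Cell type markers differed too: 11 of 11 cholinergic markers (median 1.42) and 13 of 15 oligodendrocyte markers (median 0.48) were positive, and 1 of 7 glutamatergic markers (median -3.23, Slc17a7 -4.98 with an adjusted p of 0.0661). Glutamatergic markers summed to 16.1 to 35.2 CPM in supplemented Ts65Dn and 33.6 to 1017 CPM in control-diet Ts65Dn libraries, and the part of these markers in the member values was not tested.

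Tet2, a TET dioxygenase active in blood and brain, had the smallest p. It had 33.2, 71.8 and 138 CPM as lowest, median and highest value in supplemented Ts65Dn, against 35.9, 128 and 190 CPM in control-diet Ts65Dn libraries. The ranges overlapped, and 1 control-diet library, replicate 4, was alone at 35.9 CPM. The log2 fold change was -0.74 ± 0.32 (SE, adjusted p = 0.379). Dnmt1 had 68.2, 75.6 and 129 CPM in supplemented Ts65Dn and 117, 128 and 158 CPM in control-diet Ts65Dn libraries, a difference of -0.56 ± 0.25 (SE, adjusted p = 0.431). All 8 supplemented libraries lay below the control-diet mean, yet 2 of them reached above its lowest value.

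Ehmt1, an H3K9 writer, had 17.2, 60.2 and 86.1 CPM in supplemented Ts65Dn, against 47.8, 89.1 and 145 CPM in control-diet Ts65Dn libraries (log2 fold change -0.74 ± 0.35, adjusted p = 0.459). Tet3 had 80.5, 136 and 177 CPM in supplemented Ts65Dn, against 110, 176 and 277 CPM in control-diet Ts65Dn (-0.52 ± 0.25, adjusted p = 0.505). Both overlapped, with every supplemented library below the control-diet mean. Kmt2e (-0.44 ± 0.23), Kdm6b (-0.54 ± 0.28), Setdb2 (-3.55 ± 1.97) and Suv39h2 (-3.32 ± 1.98) completed the 8 with the smallest p, with adjusted p-values of 0.538, 0.553, 0.612 and 0.663. The last 2 are near the floor, Suv39h2 being at 0 in 7 of 8 supplemented Ts65Dn libraries and 3 of 6 control-diet Ts65Dn libraries.

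Without the libraries with Chat under 1 CPM the member median was 0.01, against 0.20 over tested genes, and Tet3 stood at 0.01. An unadjusted p under 0.05 was then found for 0 members and 9.19% of tested genes. The ID prefix, the first part of the animal identifier, was spread unevenly over diets and genotypes. Prefix 14 held only supplemented libraries, and supplemented Ts65Dn replicate 8 was the only supplemented library with prefix 17. Among control-diet libraries, prefix 15 held only 2N and prefix 16 only Ts65Dn, while prefix 17 held both. Diet differences, and the trisomy difference on the control diet, therefore cannot be fully told apart from prefix. Within ID prefix 17, 0 of 13991 tested genes were called for trisomy on the control diet. Within ID prefix 16, supplemented Ts65Dn replicates 6 and 7 stood against control-diet Ts65Dn replicates 1 and 2. There Tet3 was 0.40 and the member median -0.06, against -0.05 over tested genes. Leaving out control-diet Ts65Dn replicate 3 alone gave a median of -0.09, against 0.05 over tested genes, and the count of members at an unadjusted p under 0.05 was 1 without supplemented Ts65Dn replicate 2 or without control-diet Ts65Dn replicate 5.

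The same diet comparison in 2N mice, with 4 supplemented libraries, gave 29 of 48 positive members and a median of 0.04, against 46.5% and -0.06 over tested genes. At an unadjusted p under 0.05 stood 2 members (4.17%), both higher, where 1.86% of tested genes were higher at that threshold. Markers differed here too, with 1 of 7 glutamatergic (median -2.20) and 9 of 11 cholinergic markers (median 0.52) positive. Oligodendrocyte markers, with 2 of 15 positive (median -0.37), lay on the other side from the diet comparison in Ts65Dn. The part of these markers was not tested. Kdm2b had 102, 19.7, 54.7 and 33.9 CPM in the 4 supplemented 2N libraries, against 4.15, 22.4 and 27.9 CPM as lowest, median and highest value in control-diet 2N. Every supplemented library was above the control-diet mean, and replicate 1 was far above the others. The log2 fold change was 1.43 ± 0.55 (SE, adjusted p = 0.566), and 0.89 without that library.

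Uhrf1 (5.67 ± 2.52, adjusted p = 0.603) rested on supplemented 2N replicate 4, without which it was 0.62. Prmt1, the main enzyme of asymmetric arginine dimethylation, had 0, 3.64, 2.16 and 1.47 CPM in supplemented 2N libraries, against 5.75, 9.49 and 19.0 CPM in control-diet 2N. Its groups did not overlap, as for 0.741% of tested genes in the lower direction and 1 of 48 members. The value was -2.65 ± 1.35 (SE, adjusted p = 0.755). Setd1b (-0.49), Kdm2a (-0.53), Tet2 (-0.56), Setd1a (0.64) and Dnmt3b (3.30) followed, all with an adjusted p of 1. Setd1a was at 11.1 CPM in supplemented 2N replicate 2 and gave 1.02 without it, and Dnmt3b was -1.35 without replicate 3.

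Under the supplemented diet, Ts65Dn against 2N gave 22 of 48 positive members and a median of -0.07, against 54% and 0.09 over tested genes. The 3 members at an unadjusted p under 0.05 (6.25%) were higher, as were 6.99% of tested genes. H3K4 writers were positive in 6 of 7 with a median of 0.24, H3K36 writers in 0 of 4 with a median of -0.22 and H3K9 writers in 1 of 5 with a median of -0.42. Positive marker medians were 0.59 for microglia, 0.42 for oligodendrocyte precursor, 0.39 for blood vessel, 0.26 for oligodendrocyte (11 of 15 positive) and 0.20 for cholinergic markers. Medians were -0.13 for neurons in general (5 of 12 positive), -0.04 for GABAergic and -0.03 for both astrocyte and glutamatergic markers. The part of these markers was not tested. Setd1b, an H3K4 writer, had 61.1, 136 and 199 CPM as lowest, median and highest value in supplemented Ts65Dn, against 127, 65.8, 45.0 and 81.2 CPM in the supplemented 2N libraries. The ranges overlapped and 7 of 8 Ts65Dn libraries were above the 2N mean. Its log2 fold change was 0.70 ± 0.31 (SE, adjusted p = 0.444).

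Kmt2d had 577, 886 and 1089 CPM in supplemented Ts65Dn, with 547 to 785 CPM in supplemented 2N (0.41 ± 0.19, adjusted p = 0.476). Dot1l had 89.4, 157 and 267 CPM in supplemented Ts65Dn, with 95.8 to 126 CPM in supplemented 2N (0.68 ± 0.31, adjusted p = 0.481). Both overlapped. Nsd1 (-0.33), Prmt1 (1.92), Kmt2b (0.38), Kdm2b (-0.71) and Ezh1 (-0.50) followed with adjusted p-values between 0.787 and 0.850. Kdm2b was -0.17 without supplemented 2N replicate 1. Leaving out any of the 4 supplemented 2N libraries, or supplemented Ts65Dn replicate 7, left 1 member at an unadjusted p under 0.05, and the member median was 0.08 without supplemented Ts65Dn replicates 2 and 5.

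The interaction asks whether the diet difference in Ts65Dn departs from that in 2N. It was negative for most members, with 12 of 48 positive and a median of -0.18, against 54.4% and 0.13 over tested genes. The 3 members at an unadjusted p under 0.05 (6.25%) were lower, as were 2.65% of tested genes. Kdm2b gave -1.78 ± 0.72 (SE, adjusted p = 0.463) and Uhrf1 -7.24 ± 3.09 (SE, adjusted p = 0.493), which rests on sparse counts and was -2.20 without supplemented 2N replicate 4. Tet3 gave -0.89 ± 0.39 (SE, adjusted p = 0.517), its group means being 133 CPM in supplemented Ts65Dn, 124 in supplemented 2N, 191 in control-diet Ts65Dn and 95.9 in control-diet 2N libraries. Without the libraries with Chat under 1 CPM the member median was 0.04 with 25 positive, against a median of 0.38 over tested genes. For the interaction, 14 of 15 oligodendrocyte (median 0.90), 14 of 15 astrocyte (median 0.47) and 8 of 11 cholinergic markers (median 1.13) were positive. So were 4 of 7 glutamatergic markers (median 1.48), and the part of these markers was not tested.

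**Figure D4:**
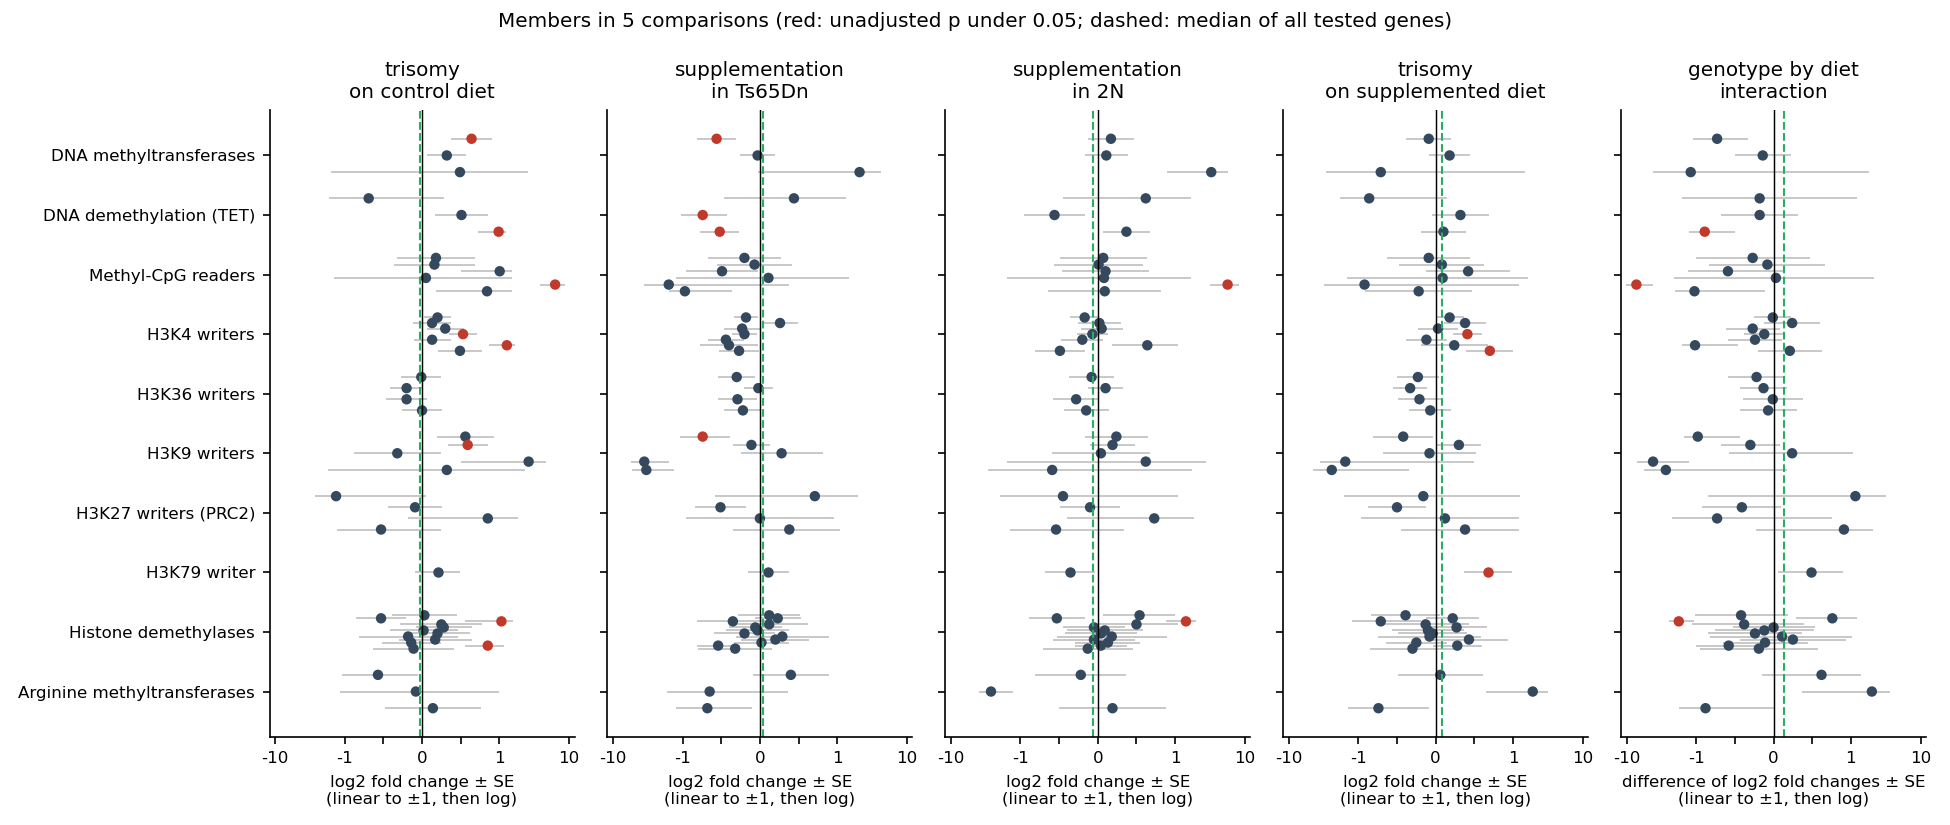
Log2 fold change ± SE of each member by class in the 5 comparisons, on an axis that is linear to 1 on either side of 0 and logarithmic beyond, with the median of all tested genes dashed. Red points, 8, 4, 2, 3 and 3 from left to right, have an unadjusted p under 0.05, and no member passed the adjusted threshold.

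Kmt2d, like Dot1l and Kmt2b, ordered the groups differently in TPM than in CPM. By count it had 886 ± 165 CPM in supplemented Ts65Dn, 666 ± 117 in supplemented 2N, 1016 ± 172 in control-diet Ts65Dn and 702 ± 96.8 CPM in control-diet 2N libraries (SD). In TPM it had 73.5 ± 38.7, 173 ± 35.9, 262 ± 144 and 220 ± 70.1 for the same groups. The supplemented Ts65Dn libraries, at 30.8 to 130 TPM, thus lay below all supplemented 2N libraries, at 132 to 219 TPM, while their CPM leaned the other way. On log2(TPM + 0.5) this difference was -1.40 for Kmt2d, where the median of all tested genes was itself -0.47. The share of tested genes that separate in this way in TPM was not tested.

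The effective length that RSEM assigned to the gene, an average over its transcripts weighted by their estimated abundance, was 6875 to 18818 bases in supplemented Ts65Dn and 3948 to 6102 bases in supplemented 2N libraries. It was 2573 to 11880 bases in control-diet Ts65Dn and 3113 to 4906 bases in control-diet 2N libraries. Supplemented Ts65Dn libraries were longer than all supplemented 2N libraries, as for 0.306% of 5223 genes with several transcripts and at least 10 counts in each library. By limma the log2 difference was 1.26 ± 0.28 (SE) for supplementation in Ts65Dn (adjusted p = 0.144) and 1.13 ± 0.32 (SE) for trisomy on the supplemented diet (adjusted p = 0.251). No gene of the 5223 was called in any comparison, and 459 and 451 (8.79% and 8.63%) had an unadjusted p under 0.05 in these comparisons. Of the 5223, 36 were members. Among them Kdm3a (-0.69) and Mbd2 (-0.60) also had such a p in the first comparison, and Kdm3a (-0.81) and Kdm7a (-0.71) in the second. The highest length over the lowest in 24 libraries was 7.31 for Kmt2d and 7.4 for Setd1a. The first difference passed the threshold without control-diet Ts65Dn replicate 3, which was at 11880 bases (1.55, adjusted p = 0.00877), and also without supplemented Ts65Dn replicates 2 and 5 (1.46, adjusted p = 0.0178). The length is an estimate of the authors' software from 50-base reads and not a measured isoform.

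**Figure D5:**
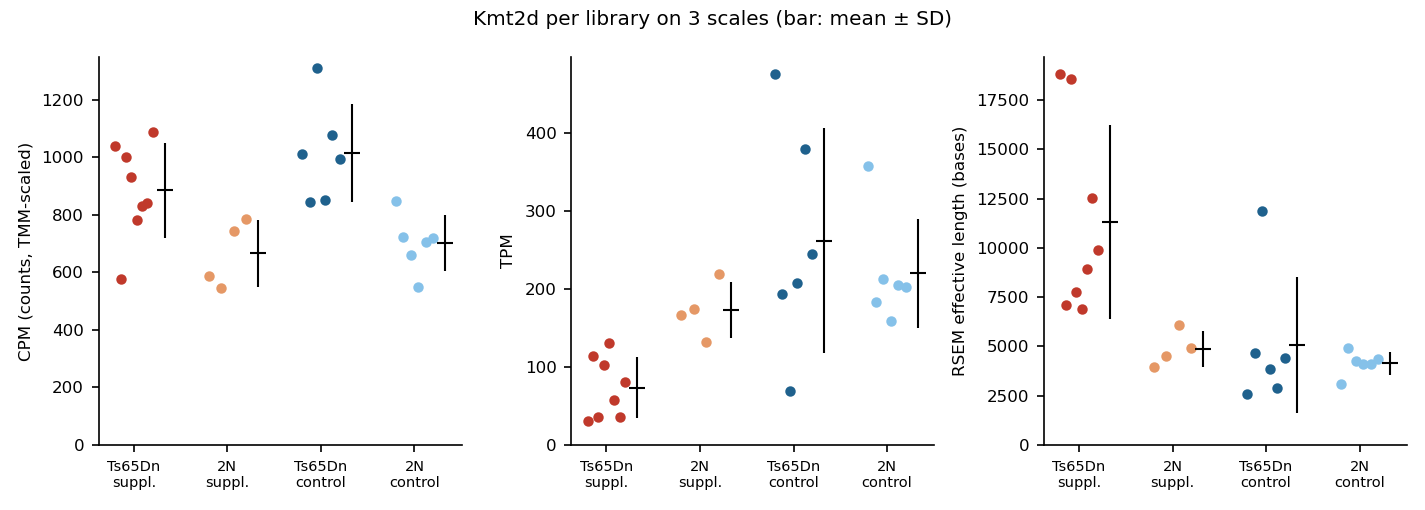
Kmt2d in each library (points, with group mean ± SD) as CPM, as TPM and as the RSEM effective length in bases. Supplemented Ts65Dn has the lowest mean TPM and, at 6875 to 18818 bases, the longest mean effective length of the 4 groups, while its mean CPM is the second highest.

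No member lies on chromosome 16. Uhrf1, Kdm4b and Ehmt2 lie on chromosome 17, but well distal to Tiam2 and Synj2, genes of its triplicated proximal part. A set of 5 tested chromatin genes from the triplicated segments was set beside the members. Among these, Brwd1, a bromodomain protein, had a log2 fold change of 0.53 ± 0.23 (SE, adjusted p = 0.346) in Ts65Dn on the control diet and 0.83 ± 0.25 (SE, adjusted p = 0.237) on the supplemented diet. Setd4, N6amt1, Hmgn1 and Morc3 were positive or at 0 on the control diet (0.00 to 1.57) and positive on the supplemented diet (0.47 to 2.93). Over 76 tested protein-coding genes of the chromosome 16 segment, 57 were positive on the control diet with a median of 0.38 and 61 on the supplemented diet with a median of 0.62.

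Neighbouring families gave 0 called genes in each comparison by edgeR. For trisomy on the control diet, the gene of smallest p was Mbd6 (1.0 ± 0.39, adjusted p = 0.269) among 13 other DNA methylation and CpG reader genes and Setd7 (-0.50 ± 0.27, adjusted p = 0.521) among 12 other lysine methyltransferases. The others were Phf2 (0.73 ± 0.34, adjusted p = 0.411) among 11 other demethylases, Prmt7 (1.43 ± 0.65, adjusted p = 0.382) among 7 other arginine methyltransferases, Ncoa6 (0.70 ± 0.31, adjusted p = 0.375) among 15 COMPASS and PRC2 partners and Cbx6 (0.45 ± 0.23, adjusted p = 0.509) among 23 readers of histone methylation. For supplementation in Ts65Dn, the genes of smallest p in these lists were Mbd5 (-0.70), Setd3 (-0.47), Phf2 (-0.74), Prmt7 (-1.03), Ncoa6 (-0.57) and Cbx6 (-0.52), with adjusted p-values between 0.354 and 0.642. For supplementation in 2N they were Gadd45g (-2.46), Nsd2 (-0.46), Phf8 (1.0), Prmt7 (1.26), Men1 (0.90) and Ing2 (-4.01), with adjusted p-values between 0.566 and 1.

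For trisomy on the supplemented diet the smallest p belonged to Ing2, a reader of H3K4 methylation (4.92 ± 1.60, adjusted p = 0.293). In 4 more lists came Setd7 (-0.49), Riox1 (5.40), Prmt7 (-0.87) and Rbbp5 (-1.22), with adjusted p-values between 0.487 and 0.865. For the interaction they were Gadd45g (3.45), Setd3 (-0.62), Riox1 (6.26), Prmt7 (-2.30), Ncoa6 (-0.85) and Ing2 (3.45), with adjusted p-values between 0.457 and 0.810. Of 14 tested genes that supply or use up S-adenosylmethionine, 7 were positive for trisomy on the control diet (median 0.05) and 8 for supplementation in Ts65Dn (median 0.12), with 0 at an unadjusted p under 0.05. The gene of smallest p in this list was Icmt (-0.93) for trisomy on the control diet, Gamt (-2.66) for supplementation in Ts65Dn, Ahcyl1 (0.38) for supplementation in 2N, Mat2b (-1.30) for trisomy on the supplemented diet and Amd1 (1.57) for the interaction, with adjusted p-values between 0.669 and 1.

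Of the members, 18 overlap another tested gene in GENCODE M21. Among those named above are Tet3, Setd1a, Kdm2b, Ehmt1, Kmt2e, Suv39h2 and Kdm6b, whose partner Kdm6bos is an antisense transcript. The kit keeps strand, but whether counting used it is not given in the sources used here, so reads of overlapping genes may be shared. Identical counts in a member and a second tested gene were found for 0 of 48.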

How the data were processed

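Libraries were made from about 500 laser-captured neurons with a low-input stranded total RNA kit and read at 50 bases, per the labels' protocols. Per the submitters' processing notes, reads were trimmed with Trimmomatic 0.39, aligned with STAR and quantified with RSEM. The builds GRCm39 and mm10 are named there without their roles, and for STAR and RSEM no version is given in the sources used here. The authors deposited RSEM expected counts with no normalization, and also TPM and an effective length per gene. Expected counts were rounded to whole numbers, and symbols came from GENCODE M21, which matched 52081 of 55414 identifiers.

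Genes were filtered with filterByExpr at a minimum count of 10, scaled with TMM and tested with edgeR 4.0.16 (R 4.3.3), with all 24 libraries in 1 quasi-likelihood fit and no covariate. Benjamini-Hochberg adjustment ran over 19967 genes, with a threshold of 0.05, two-sided. The biological coefficient of variation was 1.4. Effective lengths were compared on the log2 scale with limma 3.58.1, an analysis chosen after the TPM values were seen. Alternatives included DESeq2 1.42.0, limma-voom, limma on log2(TPM + 0.5), other filters and scalings, the ID prefix and left-out libraries. The tests were also run on simulated data with known differences, and the share of these that was recovered is not given here. Total counts had a median of 10010346 per library, and reads carried no molecular identifiers.

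The members, lists and comparisons were chosen with earlier results of these data known. By rule, each member was named with its level, and per comparison up to 8 members of smallest p, and for neighbouring lists the gene of smallest p.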

Additional observations from a re-analysis of the deposited data

Results flagged for a closer look

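In 192 groups of 4 to 8 libraries, 1 per member and genotype and diet group, 22 held a library whose log2 CPM stood apart from the rest by Dixon's test. Chance alone flags about 1 in 20 groups. Values are CPM, and none was explained.

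In supplemented Ts65Dn, single libraries were high for Mbd1 (72.4, the others at most 27.8), Uhrf1 (6.18) and Suv39h2 (1.25, the others at 0). Single libraries of that group were low for Mbd2 (8.24), Uhrf2 (0.474), Ezh1 (14.3, the others at least 38.6), Suz12 (0) and Kdm4a (13.8). Replicate 3 gave the Mbd1, Mbd2 and Uhrf1 values, and replicate 8 gave the Suv39h2 and Ezh1 values.

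In supplemented 2N, Setd1a was low in replicate 2 (11.1, the others at least 108), as was Nsd1 (260). Carm1 was low in replicate 1 (13.8), where Kdm6b was high (99.3), and Uhrf1 was high in replicate 4 (6.03).

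In control-diet Ts65Dn, Tet2 was low in replicate 4 (35.9, the others at least 116), Kdm2a in replicate 2 (40.0) and Prmt1 in replicate 3 (0, the others at least 7.06).

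In control-diet 2N, replicate 4 was high for Mbd3 (45.5), Prmt5 (63.0) and Uhrf1 (0.107, from 1 count). Replicate 2 was low for Ash1l (206) and Setdb1 (3.18), and replicate 5 was low for Uhrf2 (1.20).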

How the results depend on the processing

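No paired analysis was possible because replicate numbers only follow the order of the accessions. For trisomy on the control diet, 1 member was called with no low-count filter (256 of 39538 genes) and 2 by DESeq2 (326 of 19967 genes), and 0 to 1 when 1 library was left out. In the other comparisons 0 members were called under every alternative run. On log2(TPM + 0.5) the member median was -0.28 for trisomy on the control diet, -0.49 for supplementation in Ts65Dn and -0.61 for trisomy on the supplemented diet, where that scale moved the median of all tested genes to -0.36, -0.17 and -0.47, and the cause was not tested. On that scale 16, 7 and 5 members were positive, and trisomy on the supplemented diet turned round for Kmt2d (-1.40), Dot1l (-0.08) and Kmt2b (-0.50). Supplementation in Ts65Dn turned round for Tet3 within ID prefix 16 (0.40) and stood at 0.01 without the libraries with Chat under 1 CPM, and Suv39h2 was 0.18 without the libraries with 50 or more Xist counts. Supplementation in 2N gave -1.35 for Dnmt3b without supplemented 2N replicate 3, and up to 4.01 without 1 of the other libraries.

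With 1 library left out, the member median ran from 0.14 to 0.28 for trisomy on the control diet, -0.26 to -0.09 for supplementation in Ts65Dn, -0.01 to 0.09 for supplementation in 2N, -0.07 to 0.03 for trisomy on the supplemented diet and -0.26 to -0.10 for the interaction. By limma-voom the median was 0.01 for trisomy on the control diet and -0.02 for trisomy under supplementation, against -0.17 and 0.11 over tested genes. Of 1101 values of named members under alternatives, 1090 kept their direction and side of the threshold. No named member was past the threshold in the main fits, and this count leaves the size of a value aside. For trisomy on the control diet, settings other than leaving out 1 library gave 0.07 to 0.71 for Kmt2d. They gave 0.11 to 0.77 for Ehmt2 and 0.27 to 1.08 for Kdm6b. The Kmt2d length difference ran from 1.11 to 1.55 for supplementation in Ts65Dn, with 3 of 18 fits past the threshold, and no fit was past it for trisomy on the supplemented diet. Members near 0 counts, such as Uhrf1, Dnmt3b and Suv39h2, are limited by depth.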
